A study of Rattus norvegicus with 16 samples.

Results

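The fatty acid programme that the nuclear receptor PPAR-alpha governs in liver was examined through 8 genes, picked by symbol from a table of 32623 rat genes. They were Ppara itself, the fatty acid binding protein gene Fabp1, and Cpt1a, Acadm, Ehhadh, Cyp4a1, Cyp4a2 and Pdk4. All 8 of 8 were found. They were read within a wider set of 150 genes of fatty acid handling, matched from 158 listed symbols. RNA was taken from liver and from bone marrow. The rats were female and of the Big Blue strain, transgenic for a vector that carries the cII and lacI reporter genes, so every group shares that background. Rats arrived at 6 weeks of age, acclimated for 1 week and were housed 3 to a cage. The 4 groups were NDEA liver, control liver, NDEA marrow and control marrow, with 4 libraries each. NDEA rats were gavaged with N-nitrosodiethylamine, a liver carcinogen activated by cytochrome P450, at 10 mg/kg/day for 28 days. Control rats were gavaged on the same schedule at 0 mg/kg/day, and all were killed 3 days after the last dose. The labels do not tie same-numbered libraries of the 2 tissues to 1 rat, nor do they say which rats shared a cage. The comparison between NDEA and control asks how the dose changed expression in each tissue.

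PPAR-alpha binds fatty acids and, together with its partner RXR, sits on DNA at a direct repeat of AGGTCA with a spacer of a single base. In hepatocytes it drives genes that take up, bind, activate and burn fatty acids in mitochondria, peroxisomes and the endoplasmic reticulum, most of all during fasting or exposure to fibrate drugs. Fabp1 encodes the abundant cytoplasmic protein that carries long-chain fatty acids within hepatocytes and can deliver ligands to PPAR-alpha, and it is also a textbook target of the receptor.

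The Fabp1 promoter holds a close match to that repeat, which is why its upstream sequence is shown. The 250 bases before the start of Fabp1 in RefSeq (GRCr8, plus strand, chr4:104749090-104749339) read as follows, with the match in capitals.
Fabp1: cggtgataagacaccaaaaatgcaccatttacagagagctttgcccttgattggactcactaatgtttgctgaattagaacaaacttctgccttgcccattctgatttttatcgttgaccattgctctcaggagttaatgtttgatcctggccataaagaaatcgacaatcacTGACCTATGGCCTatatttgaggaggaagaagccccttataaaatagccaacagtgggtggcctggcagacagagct
The motif searched was AGGTCA, any single base N, and AGGTCA again, 13 letters in all, on both strands of the RefSeq promoters, each of 300 bases around a gene's start. The best match in Fabp1 lay on the opposite strand at positions -77 to -65 from the start (chr4:104749263-104749275), with 1 mismatch. Of 33469 rat promoters, 0.439% held a match as close. Of the 8 members, 7 were matched to a promoter, and the 6 besides Fabp1 had weaker best matches. Cyp4a2 had 3 mismatches at positions -220 to -208, in the window printed here (minus strand, chr5:134171106-134171138, match in capitals).
Cyp4a2: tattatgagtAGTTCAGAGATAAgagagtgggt
Ehhadh also had 3 mismatches, which 24.9% of promoters reach. Ppara, Cpt1a and Pdk4 had 4 mismatches, which 80.3% of promoters reach, and Acadm had 5, which 99.9% reach. A match in such a window is a description of letters, not a binding site, and the search does not reach beyond the window.

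The members differed by tissue and by level. Levels are in CPM, counts relative to library size after TMM scaling, which sets libraries level by trimmed means of log ratios. Because the libraries read the 3′ end of each transcript, a count does not grow with gene length. It still depends on how many reads were assigned to the gene as annotated. The orders below are therefore orders of assigned reads, and may differ from those of transcript abundance. In control liver the order of mean levels was Fabp1, Acadm, Cyp4a1, Cpt1a, Ehhadh, Ppara, Pdk4 and Cyp4a2. Fabp1 stood far above the rest, Acadm lay above Cyp4a1 with no overlap, while Cpt1a and Ehhadh overlapped, as did Ppara and Pdk4. In NDEA liver the order was Fabp1, Acadm, Cyp4a1, Ehhadh, Cpt1a, Pdk4, Cyp4a2 and Ppara; Ehhadh and Cpt1a overlapped, and the last 3 rested on few reads. The filter on low counts in liver was passed by 5 members, namely Fabp1, Cpt1a, Cyp4a1, Ehhadh and Acadm. Ppara, Pdk4 and Cyp4a2 had too few reads for it, and in marrow Cpt1a and Acadm alone passed.

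**Figure D1:**
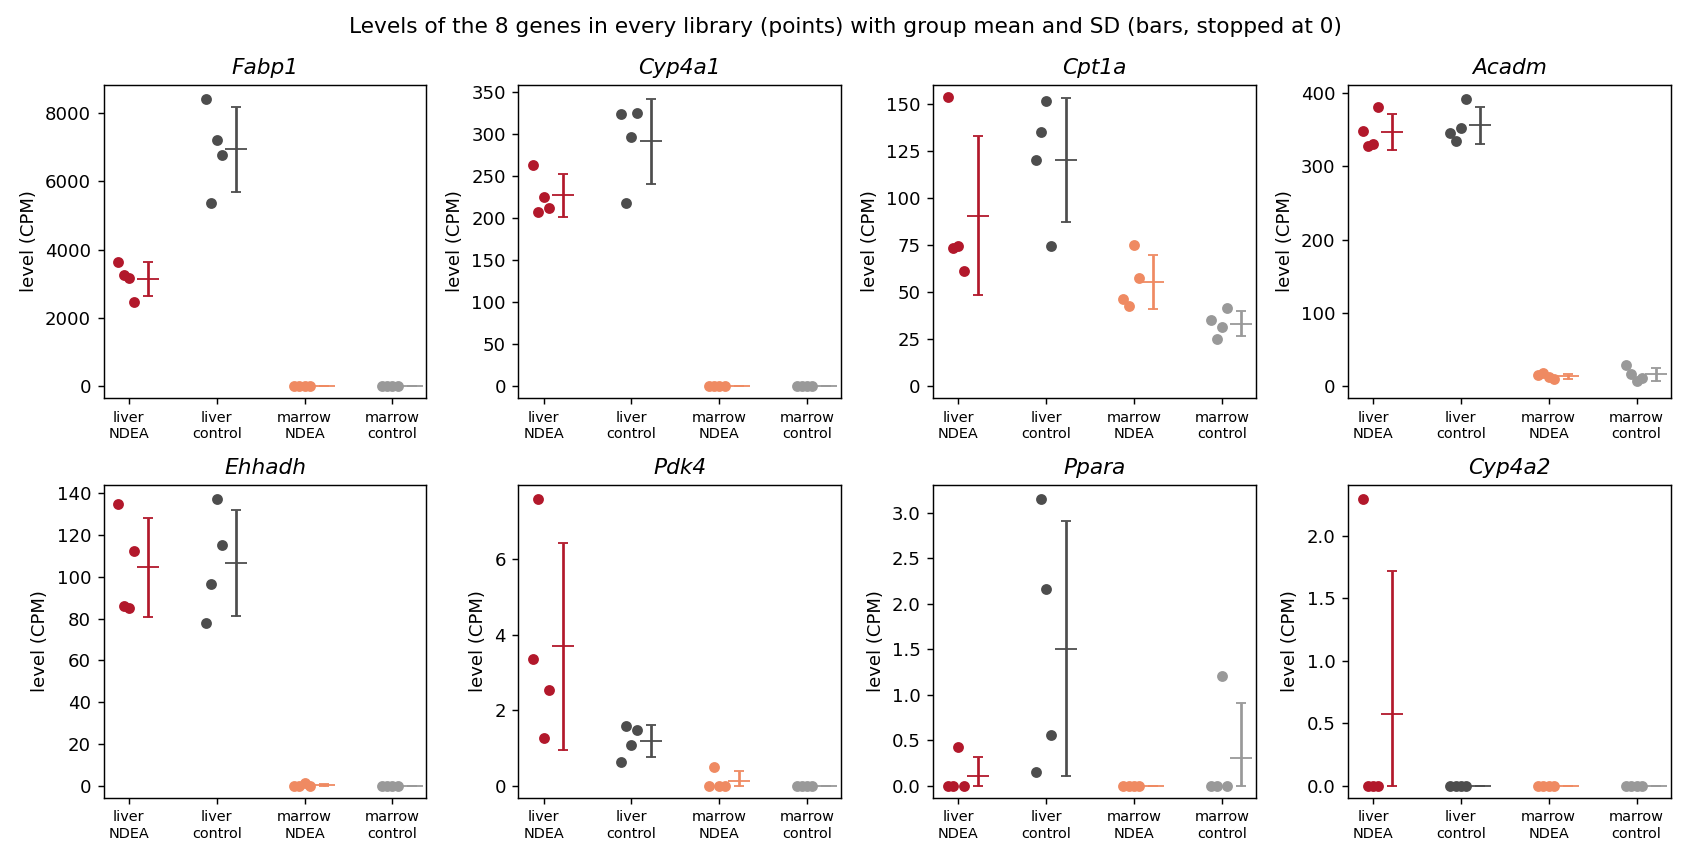
Level of each of the 8 genes (CPM, linear axis, a separate scale per gene) in the 4 NDEA liver, 4 control liver, 4 NDEA marrow and 4 control marrow libraries; points are libraries, and bars are the group mean with SD, stopped at 0. The Fabp1 points of NDEA liver (2457 to 3642 CPM) all lie below those of control liver (5367 to 8412 CPM), while the other members of liver overlap between groups.

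Fabp1 (ENSRNOG00000006675, chromosome 4, position 99063181 in the deposited table, whose build is not named) was lower in every NDEA liver than in any control liver. Its levels were 3642, 3259, 3162 and 2457 CPM in NDEA livers 1 to 4, against 8412, 5367, 7210 and 6781 CPM in control livers 1 to 4. The means were 3130 ± 494 CPM in NDEA liver and 6943 ± 1257 CPM in control liver (SD, n = 4 each). Of all genes tested in liver, 12.5% had groups that did not overlap, in either direction. Among those averaging at least 5 log2 CPM the share was 20.2%. Fabp1 fell to 0.451 of the control level (log2 fold change -1.15, SE 0.12, 95% interval -1.39 to -0.91, limma-voom adjusted p = 2.63e-07 over 9668 genes). It was the only member called of 5 tested in liver, where 6.61% of all tested genes were called at an adjusted p under 0.05 2.87% being called higher and 3.74% lower. As a share of all counts, Fabp1 took 0.362%, 0.343%, 0.328% and 0.262% in NDEA livers and 0.795%, 0.517%, 0.696% and 0.653% in control livers. That share alone differed by -0.342 percentage points (exact two-sided permutation test, p = 0.0286, the smallest that 4 against 4 libraries allow).

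The share of counts from mitochondrially encoded transcripts moved with the group and with Fabp1. It was 20.9%, 21.2%, 20.1% and 22.4% in NDEA livers 1 to 4 and 16.2%, 20.6%, 17.4% and 17.9% in control livers 1 to 4 (difference 3.13 percentage points, exact two-sided permutation p = 0.0571). With this share in the model Fabp1 remained lower (log2 fold change -0.68, limma-voom adjusted p = 6.98e-04). Control liver 2 had a mitochondrial share inside the range of the NDEA livers, and its Fabp1 level, 5367 CPM, was the lowest of the controls but above the 3642 CPM of the highest NDEA liver. Without control liver 2 the Fabp1 log2 fold change was -1.27.

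**Figure D2:**
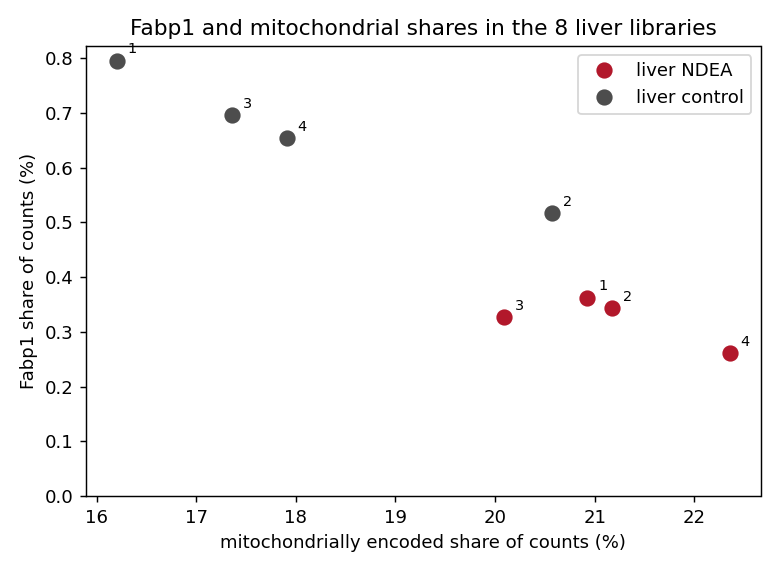
Fabp1 share of counts (%, vertical axis) against the mitochondrially encoded share of counts (%, horizontal axis) in the 4 NDEA and 4 control liver libraries, numbered by replicate. NDEA livers lie at 0.262% to 0.362% Fabp1 and control livers at 0.517% to 0.795%, and control 2 lies among the NDEA livers on the horizontal axis (20.6%) but above them on the vertical one.

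Markers of liver cells were read beside this result, and their part in it was not tested. In bulk tissue, fewer cells of a type and less RNA per cell cannot be told apart. The summed level of 10 hepatocyte markers was 114140 to 136659 CPM in NDEA liver and 122452 to 150792 CPM in control liver, overlapping ranges in which 3 markers were called higher and 4 lower. The 11 pericentral hepatocyte markers summed to 4046 to 4256 CPM in NDEA liver and 5590 to 7170 CPM in control liver, with 1 of 9 tested called higher, 3 called lower and Lgr5 at 0. The 11 periportal markers summed to 6639 to 8457 CPM in NDEA liver and 5902 to 8050 CPM in control liver, with 3 called higher and 2 lower. The 10 markers of stellate cells and fibroblasts summed to 411 to 478 CPM in NDEA liver and 212 to 320 CPM in control liver, with 2 of 7 tested called higher, 0 lower and Col1a2 at 0. The 7 cholangiocyte markers summed to 27.4 to 50.8 CPM in NDEA liver and 22.3 to 27.2 CPM in control liver, with 0 of 3 tested called and Krt19 at 0. Markers of Kupffer cells and macrophages (826 to 981 CPM in NDEA liver, 783 to 898 CPM in control liver), of endothelium (276 to 331 CPM in NDEA liver, 292 to 341 CPM in control liver) and of T, B and NK cells (9.48 to 15.9 CPM in NDEA liver, 1.75 to 10.1 CPM in control liver) overlapped between groups. Of 12 Kupffer cell and macrophage markers tested, 1 was called higher (Marco, log2 fold change 0.64) and 1 lower (Vsig4, -0.94). Of 6 endothelial markers tested 0 were called, nor was the 1 tested of T, B and NK cells. Alb, which encodes albumin, ranged over 63650 to 77266 CPM in NDEA liver and 72018 to 95242 CPM in control liver, and at no more than 0.483 CPM in marrow.

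Ppara (ENSRNOG00000021463, chromosome 7, position 126619196), the receptor, received very few reads in this assay. It had 0, 0, 3 and 0 counts in NDEA livers 1 to 4, against 1, 18, 12 and 3 counts in control livers 1 to 4. In CPM the means were 0.105 ± 0.211 in NDEA liver and 1.51 ± 1.40 in control liver (SD, n = 4 each). Most of the control reads came from libraries 2 and 3, and NDEA library 3 overlapped with control library 1. An exact two-sided permutation test of the CPM gave p = 0.0571. In the fit with no filter, which tested 14299 genes and called 5.08% of them, Ppara was not called (log2 fold change -3.00 with SE 1.13, limma-voom adjusted p = 0.159), and that fold rests on the prior added to near-empty libraries. The 3 counts of the NDEA group equal the floor of 3 counts over a group, 0.121 CPM, so the Ppara level there was not resolved. Whether the transcript was scarce or its reads went unassigned was not tested. A low count says that few reads were assigned to the gene as annotated. In the same libraries its dimer partner Rxra averaged 0.285 CPM in NDEA liver and 0.501 CPM in control liver, and 10 of the 150 pathway genes had 0 counts in all 8 livers, among them Echs1, Pex5, Pex19 and Pnpla2, named after their values were seen, which also had 0 counts in marrow.

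Cpt1a (ENSRNOG00000014254, chromosome 1, position 218569510) encodes the liver carnitine palmitoyltransferase, the gate of fatty acid entry into mitochondria. It stood at 153, 73.5, 74.1 and 61.0 CPM in NDEA livers 1 to 4 and at 120, 135, 151 and 74.3 CPM in control livers 1 to 4. NDEA liver 1 lay at the top of all 8 livers, and the other 3 NDEA livers lay below the lowest control, by little in 2 of them. Over all libraries the difference did not pass the test (log2 fold change -0.46, SE 0.23, 95% interval -0.94 to 0.03, limma-voom adjusted p = 0.302). Without NDEA liver 1, Cpt1a was called lower (log2 fold change -0.75, limma-voom adjusted p = 0.0411).

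Cyp4a1 (ENSRNOG00000009597, chromosome 5, position 134492756) encodes a fatty acid omega-hydroxylase and is a classical response gene of PPAR-alpha agonists in rat liver. It stood at 264, 208, 225 and 212 CPM in NDEA livers 1 to 4 and at 324, 219, 297 and 326 CPM in control livers 1 to 4. The lowest control, library 2, lay within the range of the NDEA livers. Cyp4a1 was not called over all libraries (log2 fold change -0.34, SE 0.14, 95% interval -0.62 to -0.07, limma-voom adjusted p = 0.152). Without control liver 2 it was called lower (log2 fold change -0.48, limma-voom adjusted p = 0.0185), and after adding the mitochondrial share to the model the estimate was 0.02. Its relatives on chromosome 5 are similar in sequence, so reads may have been split among them in a way the sources used here do not describe. Cyp4a2 (ENSRNOG00000030154, position 134196912) had 15 counts in NDEA liver 1 and 0 in the other 7 livers. Cyp4a3 (position 134469270), a pathway gene named here for its kinship, averaged 31.5 ± 13.2 CPM in NDEA liver and 42.9 ± 8.89 CPM in control liver (SD, n = 4 each; log2 fold change -0.50, limma-voom adjusted p = 0.309).

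Acadm and Ehhadh, which encode oxidation enzymes of mitochondria and peroxisomes, differed by less than the spread between libraries. Acadm (ENSRNOG00000009845, chromosome 2, position 260124418), medium-chain acyl-CoA dehydrogenase, stood at 349, 328, 331 and 381 CPM in NDEA livers and at 345, 335, 353 and 392 CPM in control livers. Its log2 fold change was -0.04 (SE 0.11, 95% interval -0.26 to 0.19, limma-voom adjusted p = 0.906), an interval that does not reach the size of the Fabp1 change. Ehhadh (ENSRNOG00000001770, chromosome 11, position 82945104), the peroxisomal bifunctional enzyme, stood at 135, 85.8, 85.0 and 112 CPM in NDEA livers and at 77.9, 96.3, 137 and 115 CPM in control livers. Both groups spanned a similar range, and its log2 fold change was -0.01 (SE 0.18, 95% interval -0.39 to 0.37, limma-voom adjusted p = 0.986).

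Pdk4 (ENSRNOG00000009565, chromosome 4, position 30546664) encodes the kinase that shuts off pyruvate dehydrogenase when fat is burned. It had 22, 40, 9 and 17 counts in NDEA livers 1 to 4, which are 3.36, 7.60, 1.27 and 2.55 CPM, against 4, 9, 6 and 8 counts in control livers 1 to 4, which are 0.62, 1.58, 1.08 and 1.47 CPM. The estimate thus pointed opposite to that of Fabp1, but NDEA liver 3 lay within the control range. Neither the exact two-sided permutation test (p = 0.0857) nor the fit with no filter (log2 fold change 1.28 with SE 0.92, limma-voom adjusted p = 0.567) passed.

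**Figure D3:**
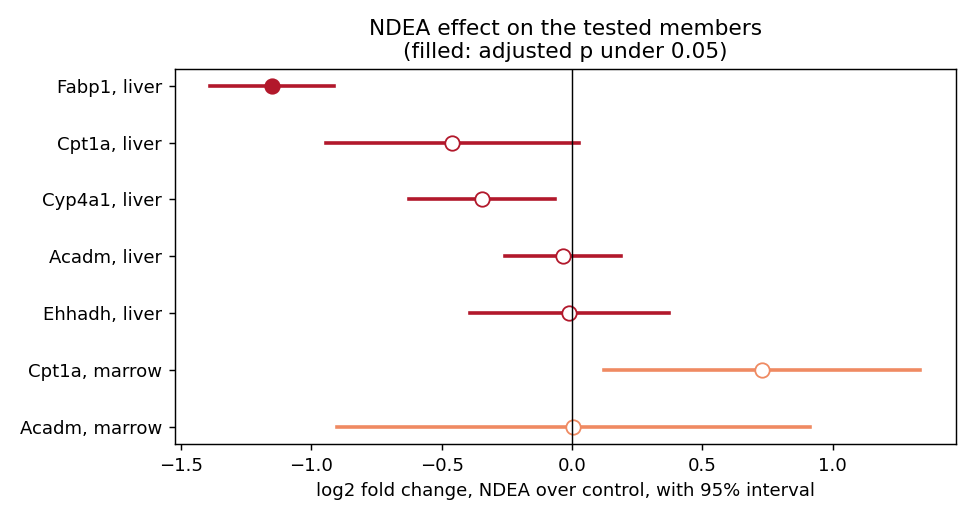
Log2 fold change of NDEA over control with its 95% interval for the 5 members tested in liver and the 2 tested in marrow; a filled point has an adjusted p under 0.05. Fabp1 in liver, at -1.15, is the filled point, the liver intervals of Acadm and Ehhadh are centred near 0, and Cpt1a lies at -0.46 in liver and 0.73 in marrow.

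The wider fatty acid programme in liver held calls in both directions, more of them lower. Of 126 pathway genes tested, 8 were called higher and 21 lower, or 23% against 6.61% of all tested genes, and 36 (28.6%) had groups that did not overlap, against 12.5% of all genes. The median log2 fold change was -0.23, against 0.01 over all tested genes. Pathway genes are abundant ones, with a median average of 5.93 log2 CPM against 3.96 for all genes. Among genes averaging at least 5 log2 CPM, 26 of 78 pathway genes were called (33.3%, with 7.69% higher and 25.6% lower), against 15% of all 3115 such genes (4.82% higher and 10.1% lower). At that level 39.7% of pathway genes had groups that did not overlap, against 20.2% of all such genes. The median log2 fold change there was -0.24 for pathway genes and -0.07 for all genes. With library totals alone in place of TMM, 10 of the tested pathway genes were called higher and 14 lower. That scaling moved the median of all genes to 0.12. After the mitochondrial share was added to the model, 7 pathway genes were called, all lower and all among the 29 (Acacb, Acot5, Acox2, Acsl1, Acsl4, Amacr and Fabp1), while calls over all genes came down to 148. With all 16 libraries in 1 fit there were 17, of which 15 were among the 29.

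**Figure D4:**
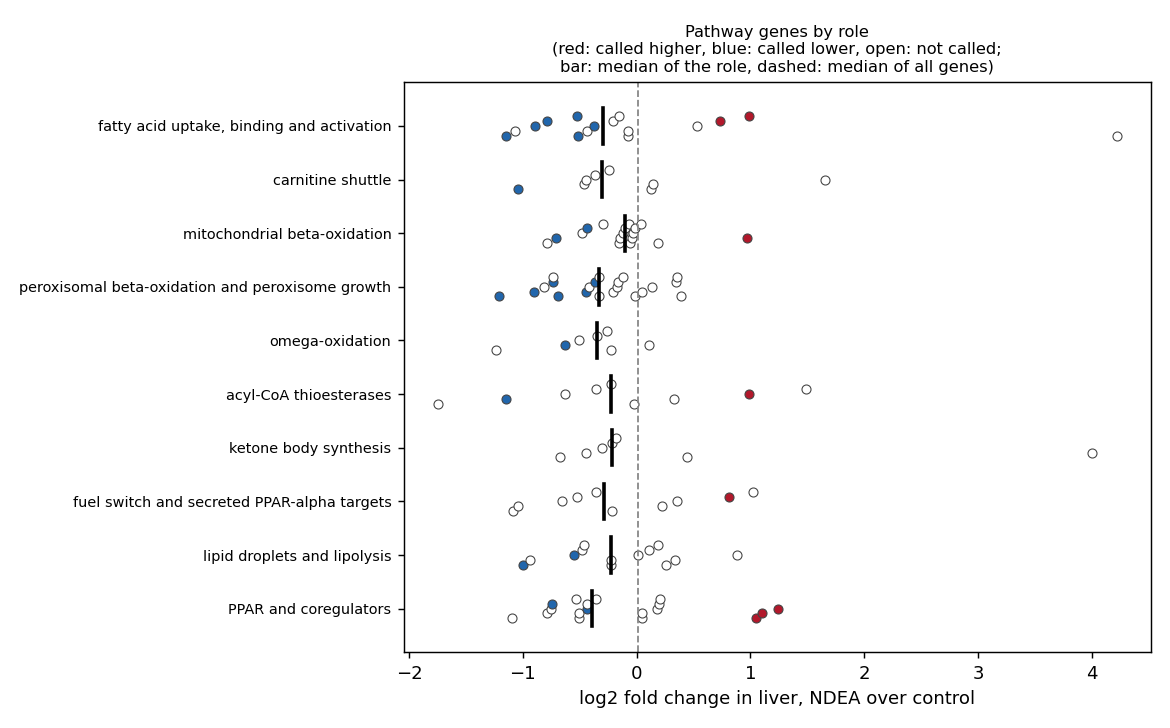
Log2 fold change of NDEA over control liver (horizontal axis) for each tested pathway gene, grouped by role (vertical axis); red points were called higher, blue points lower, open points not called, black bars are the median of each role and the dashed line is the median of all genes, 0.01. Role medians lie between -0.40 and -0.11.

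Genes that take up and activate fatty acids held the most calls. Of 16 tested, 2 were called higher and 6 lower, Fabp1 among the lower ones, with a median log2 fold change of -0.29. Acsl1, the main acyl-CoA synthetase of liver, which primes fatty acids for oxidation or storage, stood at 1363, 1245, 1234 and 1198 CPM in NDEA livers and at 2208, 2050, 2540 and 2595 CPM in control livers. The groups lay far apart, and the log2 fold change was -0.89 (SE 0.09, limma-voom adjusted p = 3.19e-07). Acsl4, which prefers arachidonic acid, averaged 500 ± 25.2 CPM in NDEA liver and 717 ± 58.0 CPM in control liver (SD, n = 4 each; log2 fold change -0.52, limma-voom adjusted p = 0.00142). Slc27a5, a bile acid and very long chain acyl-CoA synthetase, averaged 412 ± 135 CPM in NDEA liver and 681 ± 61.4 CPM in control liver (log2 fold change -0.78, limma-voom adjusted p = 0.00156). Acsl5, the most abundant gene of the role that was not called, had a log2 fold change of -0.21. The remaining calls, named after their values were seen, were the lower Slc27a2 (log2 fold change -0.52) and Dbi (-0.38), and the higher Fabp5 (0.73) and Acsl3 (0.99). Fabp5, an epidermal-type fatty acid binding protein, averaged 92.1 ± 4.08 CPM in NDEA liver and 55.5 ± 8.33 CPM in control liver, so that another member of the binding protein family was called in the direction opposite to Fabp1.

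In the carnitine shuttle 1 of 8 tested genes was called, and it was lower. Acacb, the acetyl-CoA carboxylase whose product malonyl-CoA inhibits Cpt1a, stood at 90.3, 73.9, 102 and 76.0 CPM in NDEA livers and at 153, 161, 171 and 229 CPM in control livers (log2 fold change -1.04 with SE 0.16, limma-voom adjusted p = 1.30e-04). Crot, which hands medium-chain products of peroxisomes to carnitine, was not called (log2 fold change 0.15). In mitochondrial beta-oxidation 1 of 17 tested genes was called higher and 2 lower, with a median of -0.11. Acad9, an acyl-CoA dehydrogenase that also assembles respiratory complex I, averaged 57.7 ± 2.62 CPM in NDEA liver and 29.4 ± 1.24 CPM in control liver (SD, n = 4 each; log2 fold change 0.97, limma-voom adjusted p = 0.00278). Etfdh and Etfb pass electrons from the dehydrogenases to the respiratory chain. Etfdh averaged 74.1 ± 14.4 CPM in NDEA liver and 119 ± 15.4 CPM in control liver (log2 fold change -0.70, limma-voom adjusted p = 0.0106). Etfb averaged 323 ± 31.4 CPM in NDEA liver and 434 ± 8.91 CPM in control liver (log2 fold change -0.43, limma-voom adjusted p = 0.0125). The Etfb call ended without NDEA liver 3 (-0.39, limma-voom adjusted p = 0.0535) and with library totals alone (-0.32, limma-voom adjusted p = 0.0653). The thiolase Acaa2, the most abundant gene of the role that was not called, averaged 508 ± 51.4 CPM in NDEA liver and 532 ± 82.3 CPM in control liver.

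Peroxisomal genes held 6 calls among 21 tested, all lower, with a median of -0.33. Amacr, the racemase that prepares branched-chain fatty acids and bile acid intermediates for peroxisomal oxidation, stood at 181, 146, 203 and 178 CPM in NDEA livers and at 258, 356, 372 and 353 CPM in control livers (log2 fold change -0.90 with SE 0.14, limma-voom adjusted p = 1.23e-04). Pxmp2, a pore of the peroxisomal membrane, averaged 194 ± 24.5 CPM in NDEA liver and 314 ± 47.5 CPM in control liver (log2 fold change -0.69, limma-voom adjusted p = 0.00156). Scp2, whose long form is the thiolase of branched chains, averaged 1289 ± 57.3 CPM in NDEA liver and 1663 ± 97.8 CPM in control liver (log2 fold change -0.37, limma-voom adjusted p = 0.00656), a call that ended with library totals alone (limma-voom adjusted p = 0.0589). The other calls, named after their values were seen, were Acox2 (-0.44), the oxidase of branched chains and bile acid intermediates, Hacl1 (-0.74), the lyase of alpha-oxidation, and Pex11a (-1.21), a peroxisome division factor whose groups overlapped. Phyh, the hydroxylase of phytanic acid, was the most abundant gene of the role that was not called (log2 fold change 0.36, limma-voom adjusted p = 0.18), and it was called higher without control liver 2 (0.51, limma-voom adjusted p = 0.0173) and with library totals alone (0.47, limma-voom adjusted p = 0.0495).

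The remaining enzyme and target roles held few calls each. Among 7 omega-oxidation genes, Cyp4f4 was called lower (108 ± 11.9 CPM in NDEA liver and 168 ± 29.3 CPM in control liver, log2 fold change -0.63, limma-voom adjusted p = 0.00863), and Cyp4f1, the most abundant, was not (-0.26). Among 9 thioesterases, which release fatty acids from CoA, Acot5 stood at 86.5, 61.3, 53.6 and 41.8 CPM in NDEA livers and at 126, 131, 124 and 136 CPM in control livers (log2 fold change -1.14 with SE 0.18, limma-voom adjusted p = 1.72e-04). The peroxisomal Acot8 was called higher at the edge of the threshold (25.0 ± 3.84 CPM in NDEA liver and 12.5 ± 1.99 CPM in control liver, log2 fold change 0.99, limma-voom adjusted p = 0.0495), a call that ended when any of the 8 livers was left out (0.90 to 1.08). Acot12 was not called (-0.22). None of 7 ketone body genes was called. Of these 7, 4 had an unadjusted p under 0.05, a larger share than the 18.7% of all tested genes.

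Among 10 genes of fuel switching and secreted PPAR-alpha targets, 1 was called, the uncoupling protein gene Ucp2, which was higher (56.5 ± 15.1 CPM in NDEA liver and 31.4 ± 4.27 CPM in control liver, log2 fold change 0.82, limma-voom adjusted p = 0.0397). That call ended when any liver but NDEA 1 was left out (0.68 to 0.89). Creb3l3, a liver transcription factor that works with PPAR-alpha, was not called (-0.22). Of 13 lipid droplet and lipolysis genes, 2 were called lower. G0s2, an inhibitor of adipose triglyceride lipase, averaged 61.6 ± 10.9 CPM in NDEA liver and 128 ± 46.7 CPM in control liver (log2 fold change -0.996, limma-voom adjusted p = 0.00307). Lipc, hepatic lipase, averaged 304 ± 44.6 CPM in NDEA liver and 444 ± 24.6 CPM in control liver (log2 fold change -0.55, limma-voom adjusted p = 0.00322), and the droplet protein gene Cideb was not called (-0.22).

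Among 18 tested receptors and coregulators, 3 were called higher and 2 lower, with a median of -0.40. Hnf4a, a hepatocyte nuclear receptor that binds the same kind of repeat as PPAR-alpha, stood at 236, 200, 203 and 190 CPM in NDEA livers and at 430, 323, 336 and 306 CPM in control livers (log2 fold change -0.75 with SE 0.13, limma-voom adjusted p = 4.29e-04). Every NDEA liver lay below every control. Prkaa1, a catalytic subunit of the energy sensor AMPK, stood at 38.1, 31.7, 43.6 and 34.9 CPM in NDEA livers and at 13.4, 19.8, 22.5 and 15.1 CPM in control livers (log2 fold change 1.11 with SE 0.26, limma-voom adjusted p = 0.0104). Lpin2, a phosphatidate phosphatase, averaged 47.7 ± 13.3 CPM in NDEA liver and 22.8 ± 2.49 CPM in control liver (log2 fold change 1.05, limma-voom adjusted p = 0.0106). The most abundant uncalled gene was Crebbp, a histone acetyltransferase (0.05). The other calls, named after their values were seen, were the higher Lpin1 (1.24), a relative of Lpin2 that also coactivates PPAR-alpha and whose groups overlapped, and the lower Ncor1 (-0.44), a corepressor.

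The promoters of the pathway genes were read for the same motif in the windows described above. At 2 mismatches or fewer, which 3.77% of all rat promoters reach, 5 of the 19 called lower genes with a promoter held a match (26.3%), against 8 of 73 tested but not called (11%) and 1 of 7 called higher (14.3%). Of the pathway genes not tested in liver, 4 of 19 with a promoter held a match (21.1%). At 1 mismatch or fewer, the closeness of the Fabp1 match, the lower genes did not stand out. There 1 of 19 called lower genes (Fabp1 itself) and 1 of 7 called higher held a match. So did 3 of 73 tested but not called (Acadvl, Acot4 and Acot12, not printed below) and 0 of 19 not tested. No test was made of these shares. The 5 matches among the lower genes and the 1 among the higher are printed so that they can be compared with the Fabp1 match; positions are from each gene's start.
Fabp1 (-77 to -65, opposite strand): TGACCTATGGCCT
Slc27a2 (-76 to -64, opposite strand): TGACCTTTGAGAT
Acacb (-155 to -143, opposite strand): TGACCTTTGTCCC
Amacr (-208 to -196, same strand as the gene): AGACCAAAGGTCA
Lipc (-232 to -220, opposite strand): TGACCTTTGATCA
Acot8 (-22 to -10, same strand as the gene, called higher): GGGTCAGAGGTCA
All capitals here are the matched 13 bases.

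In marrow, 6 of the 8 members were at or near 0. Fabp1 and Cyp4a1 had 0 counts in all 8 marrow libraries, Cyp4a2 likewise, Ehhadh had 6 counts in NDEA marrow 3, Pdk4 had 3 counts in NDEA marrow 2, and Ppara had 5 counts in control marrow 3. Against a floor of 3 counts over the control marrow group, the control liver level was at least 39706-fold higher for Fabp1, 1658-fold for Cyp4a1, 599-fold for Ehhadh and 6.65-fold for Pdk4. Where both tissues had reads, control liver was higher than control marrow by a log2 fold change of 5.00 for Acadm (SE 0.31, limma-voom adjusted p = 1.64e-09) and 2.10 for Cpt1a (SE 0.28, limma-voom adjusted p = 7.63e-06). In that comparison 66.1% of 10071 genes were called and 32.8% were called higher in liver. Fabp1, Cyp4a1 and Ehhadh also entered it, but with 0 counts in control marrow they passed the filter through liver alone, so their direction there was fixed and is not counted.

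Cpt1a was the single member with substantial reads in marrow. It stood at 46.1, 42.6, 74.6 and 57.5 CPM in NDEA marrow 1 to 4 and at 34.8, 25.2, 31.2 and 41.3 CPM in control marrow 1 to 4. Every NDEA marrow lay above every control. Of all genes tested in marrow, 5.6% had groups that did not overlap, in either direction. The log2 fold change was 0.73 (SE 0.29, 95% interval 0.12 to 1.33, unadjusted p = 0.0212, limma-voom adjusted p = 0.283), so it was not called, and neither was any of the 9239 genes (0%, with 1336, or 14.5%, at an unadjusted p under 0.05). Without NDEA marrow 3 and 4, the libraries with the fewest genes detected, the estimate was 0.44. Other measures differed between the marrow groups, and their part in the Cpt1a values was not tested. The 9 skeletal muscle markers summed to 62.1 to 78.1 CPM in NDEA marrow and 156 to 556 CPM in control marrow, none of them at 0 in every library of a group, and all 7 tested had a lower estimate with 0 called. The 10 markers of stellate cells and fibroblasts summed to 1216 to 3133 CPM in NDEA marrow and 2344 to 5503 CPM in control marrow, with Col1a2 and Lrat at 0, and all 6 tested had a lower estimate (median log2 fold change -1.51) with 0 called. Genes detected numbered 9101 to 11037 in NDEA marrow and 11054 to 11699 in control marrow. The 8 adipocyte markers, none at 0, overlapped, with sums of 1581 to 2254 CPM in NDEA marrow and 1383 to 2258 CPM in control marrow. Acadm stood at 14.4, 17.6, 12.3 and 9.29 CPM in NDEA marrow and at 28.5, 16.7, 7.25 and 11.4 CPM in control marrow, with no difference beyond the spread (log2 fold change 0.01 with SE 0.43, limma-voom adjusted p = 0.997). Of 92 pathway genes tested in marrow 0 were called, and 11 had an unadjusted p under 0.05.

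Whether the NDEA effect differed between tissues could be asked of Cpt1a and Acadm, the members that passed the filter in each tissue. Fabp1, Cyp4a1 and Ehhadh also entered the fit, but at or near 0 in marrow their difference has no interpretable value. For Cpt1a the difference, liver effect minus marrow effect, was -1.14 on the log2 scale (SE 0.43, 95% interval -2.03 to -0.24, unadjusted p = 0.0149, limma-voom adjusted p = 0.181), and for Acadm it was 0.02 (SE 0.42, limma-voom adjusted p = 0.991). Neither Cpt1a nor Acadm was called, in a fit where 2.28% of 11261 genes were (2.07% higher and 0.213% lower) and where the median difference of all genes was 0.32. Of 128 pathway genes 3 were called higher and 1 lower. The lower one was Acsl1, with a difference of -1.08 (limma-voom adjusted p = 0.0221), and without NDEA marrow 3 it was not called (-1.03, limma-voom adjusted p = 0.0547). Its marrow levels were 155, 132, 169 and 158 CPM in NDEA marrow and 75.4, 166, 110 and 167 CPM in control marrow, which overlapped. Prkaa1 had a difference of 1.69 (limma-voom adjusted p = 0.017), with 35.5 ± 10.3 CPM in NDEA marrow and 50.8 ± 5.17 CPM in control marrow (SD, n = 4 each), and was not called without control liver 4 (1.56, limma-voom adjusted p = 0.0575). The other calls, Fabp4 (3.88, limma-voom adjusted p = 0.0467) and the ketone-using enzyme gene Oxct1 (4.41, limma-voom adjusted p = 0.0481), rest on few reads in control liver. The Fabp4 call ended without any 1 of 11 libraries (2.98 to 4.26), among them all 4 control livers, and the Oxct1 call without any 1 of 10 (3.93 to 4.50). Fabp4, the fatty acid binding protein of adipocytes and macrophages, stood at 5.3, 16.3, 5.3 and 26.2 CPM in NDEA livers and at 0.8, 1.2, 0.7 and 0 CPM in control livers, and was not called in liver alone (limma-voom adjusted p = 0.161).

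The genes whose pattern over the 8 livers was most like that of Fabp1 were sought among 6483 tested genes averaging at least 3 log2 CPM, by the mean absolute difference of log2 CPM centred on each gene's own mean. They were Fxyd1, a regulator of the sodium pump (mean difference 0.0993), F7, coagulation factor VII made by hepatocytes (0.106), and Cp, the plasma copper protein ceruloplasmin (0.117). Cp averaged 748 ± 46.9 CPM in NDEA liver and 1563 ± 235 CPM in control liver, and F7 averaged 79.3 ± 10.4 CPM in NDEA liver and 162 ± 30.8 CPM in control liver (SD, n = 4 each). Fxyd1 averaged 84.6 ± 15.7 CPM in NDEA liver and 174 ± 16.7 CPM in control liver. None of these 3 is on the fatty acid lists. For Ppara the nearest genes, Cux2, Zzef1 and Cyp2c7, stood 1.03, 1.06 and 1.07 away, so no close likeness was found for a gene with so few reads.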

How the data were processed

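The authors deposited 1 table of read counts per gene for all 16 libraries, made with a 3′ mRNA kit (QuantSeq FWD) per the labels' protocols. The submitters' processing notes name STAR and DESeq2 without versions. Which counter, build and annotation the authors used is not given in the sources used here. The deposited table was damaged: of 32635 lines, 15579 began inside a quoted cell and 12 records were broken over 2 lines. All 32623 records were rejoined, and in 16313 of 16313 records that also held group totals these equalled the summed counts. Because a plain reading misplaces pieces of broken lines, the unit was recorded as other than counts, and the planned count-model tests were replaced by limma-voom (limma 3.58.1, R 4.3.3). A further 34 unnamed columns were not used.

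Liver libraries held 5000844 to 6863592 counts and marrow libraries 2162182 to 5705705. Floors cover counting error only. Each tissue was fitted alone after TMM scaling (trims 0.3 and 0.05), keeping genes with 15 counts or more in total whose CPM, in 4 or more libraries, reached what 10 counts make in a library of median size. The tissue difference was the interaction over 16 libraries. P-values were adjusted by Benjamini-Hochberg over all tested genes, called under 0.05; the prior was 0.5. P-values measure the spread between libraries, which the labels do not tie to cages. The liver, marrow and tissue-difference fits were tested on simulated data, with changes set only in genes above a minimum mean count. That trial does not bear on members with few reads. The comparison of control liver with control marrow was not simulated, and the outcome is not reported here. The closing section gives the effect of other scalings, filters, tests, covariates and left-out libraries. Leaving out control liver 2 beside its mitochondrial share, and the fit with no filter for low members, were chosen after seeing the data.

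The members and lists were chosen with earlier results of these data known. Of 310 list entries, 297 were matched, by symbol or through a RefSeq synonym. The others were not analysed here. All 8 members were named, and of each list the 3 called genes with the smallest adjusted p and the most abundant uncalled gene. Some genes that this rule takes are not reported here. For the tissue difference the 5 called pathway genes with the smallest adjusted p were to be named, of which there were 4. Promoters are RefSeq's (GRCr8); positions in the deposited table are on an unnamed build.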

Additional observations from a re-analysis of the deposited data

Results flagged for a closer look

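Cpt1a in NDEA liver 1, at 153 CPM, stood apart from the other 3 NDEA livers, which lay between 61.0 and 74.1 CPM. The gap to its nearest neighbour took a larger part of the group's range than Dixon's 95% critical value for 4 samples allows. Chance sets apart about 1 in 20 such groups, and the rule was applied to every member and group with enough counts. The same library lay at 349 CPM for Acadm, within its group, and at 264 CPM for Cyp4a1, the top of its group.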

How the results depend on the processing

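Fabp1 in liver was called lower in all 17 alternatives (-1.27 to -0.68), from -1.27 to -1.04 when single libraries were left out. Members called in liver numbered 1 to 2 when single libraries were left out, Cyp4a1 joining without control 2 and Cpt1a without NDEA 1. Pathway genes called in liver numbered 23 to 33 in that way, 17 with all 16 libraries in 1 fit and 7 with the mitochondrial share added. In marrow 0 to 1 pathway genes were called when single libraries were left out, the 1 being Cat, without control 3. No member was called in marrow or for the tissue difference under any alternative run.

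Some estimates of uncalled genes changed sign. In liver the mitochondrial covariate took those of Cyp4a1 (-0.34), Phyh (0.36) and Cideb (-0.22) to near 0. The estimates that changed sign were Cyp4a1 (0.0156), Acaa2 (0.123), Cideb (0.0293), Crebbp (-0.14) and Phyh (-0.000804) with the mitochondrial covariate, and Ehhadh (0.11), Acadm (0.0782) and Acaa2 (0.0523) with library totals alone. Ehhadh was also 0.002431 with median-of-ratios factors and 0.0123 with a filter at 5 CPM. Acadm in marrow was -0.12 with limma-trend, -0.16 with the replicate block and -0.057 in 1 fit of all libraries. The Acadm tissue difference was -0.13 with median-of-ratios factors, -0.0585 with no filter, -0.000888 with the 5 CPM filter and -0.0223 with library weights. Leaving out single libraries gave -0.16 to 0.12 for Ehhadh, -0.0842 to 0.00501 for Acadm, -0.15 to 0.0339 for Acaa2 and -0.0512 to 0.11 for Crebbp in liver, -0.27 to 0.17 for Acadm in marrow and -0.21 to 0.22 for its tissue difference. The cause was not tested.

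Calls of Acot8 and Ucp2 were lost in 11 and 10 of 17 alternatives, and those of Fabp4 and Oxct1 for the tissue difference in 15 and 12 of 23. Deviations of same-numbered libraries from their group means had correlations of -0.02 to 0.06. Such values cannot decide whether a number stands for 1 rat or batch, since libraries that share either need not deviate together. With the replicate block Fabp1 was -1.15 and 32 pathway genes were called in liver. The few reads assigned to Ppara, Pdk4 and Cyp4a2 limit what can be said of them.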

Other observations

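Genes of fasting, glucocorticoid response and the liver clock were read as context for a programme that follows feeding state. Of 14 tested fasting and glucocorticoid genes, 2 were called higher and 4 lower, with a median log2 fold change of -0.25. Sds, serine dehydratase, averaged 123 ± 52.6 CPM in NDEA liver and 7.44 ± 9.75 CPM in control liver (SD, n = 4 each; log2 fold change 4.70, limma-voom adjusted p = 1.31e-04). Of 13 tested clock genes 0 were called by limma-voom, and 1 had an unadjusted p under 0.05. The labels give no feeding state or time of day at sacrifice.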
